A study of Gallus gallus with 6 samples.

Results

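The genes described here encode the nuclear parts of respiratory complexes II to V of the mitochondrial inner membrane. They were chosen by symbol, with earlier results of these data known. The rule took SDHA to SDHD, and every symbol beginning with UQCR, COX4, COX5, COX6, COX7, COX8 or ATP5. This gave 39 of the 16317 genes of the deposited table, with 4 in complex II, 8 in complex III, 9 in complex IV and 18 in complex V. All 39 passed the filter on low counts and were tested among 13060 genes. Of the 39, 36 encode subunits. The other 3 carry a matching symbol without being subunits in human: COX7A2L helps to join complexes III and IV, ATP5S is a factor that couples to the ATP synthase, and ATP5SL is an assembly factor of complex I. Symbols are those of the table, and the RefSeq gene table lists 5 of the 39 under another symbol.

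Complex II oxidises succinate and passes the electrons to coenzyme Q. Complex III hands them from coenzyme Q to cytochrome c, complex IV hands them from cytochrome c to oxygen, and complexes III and IV pump protons as they do so. Complex V, the ATP synthase, lets the protons flow back through a rotating ring and makes ATP in its head, which in the absorptive cells of the gut pays for the pumping of sodium that drives nutrient uptake.

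Messenger RNA had been sequenced from the jejunal mucosa of SUT breeder hens, a chicken breed, at an age of 28 weeks. Control hens stayed at 23 °C without heat stress, and heat hens were exposed to 36 °C for 6 h. From 25 hens per condition, 12 were sampled, and each of the 3 pools per condition mixed the tissue RNA of 4 hens. No treatment or allele other than the temperature is named in the labels for either group, and the sources used here do not give the hour of sampling. Since each pool was 1 library, the spread reported is that between pools of hens, not between hens.

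Summed estimated counts were 11513427 to 13805395 per pool, and the counts of these 39 genes made up 0.882% to 1.19% of them. Heat pool 3 stood apart from heat pools 1 and 2 for these genes, so each main count is given with and without it. Of 20 enterocyte markers, 19 passed the count filter, as did 13060 of all 16317 genes, so passing it is no check of the tissue label. VIL1, a microvillus protein, was at 617 to 1267 CPM, the count scaled to library size, and the marker ALPI at only 2.22 to 2.67 CPM. Skeletal and heart muscle markers were near 0, with a summed level of 6.96 to 10.6 CPM over 10 genes. Smooth muscle markers summed to 1072 to 2121 CPM over 12 genes. In a tissue sample, fewer cells of a type that is rich in mitochondria and less RNA per cell cannot be told apart.

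Transcripts of complexes II to V were abundant in every pool. Levels between genes were compared per gene length, in the FPKM values deposited by the authors (fragments scaled to gene length and library total). The highest mean over the 6 pools belonged to COX7B, a small subunit of cytochrome c oxidase, with 2785 ± 254 FPKM in control pools (SD, n = 3). Next came ATP5E, the epsilon subunit of the ATP synthase, with 2500 ± 164 FPKM in control pools (SD, n = 3), and COX4I1, the largest nuclear subunit of complex IV and the widely expressed form of its pair, with 2052 ± 27.6 FPKM. COX7B was above ATP5E in 5 of 6 pools, with heat pool 2 as the exception. At the other end, ATP5S had 13.2 ± 0.742 FPKM and ATP5SL 18.5 ± 0.313 FPKM in control pools (SD, n = 3), far below the subunits.

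Within each complex the levels covered a wide range. Mean FPKM over the 6 pools ran from 130 (SDHA) to 602 (SDHD) in complex II and from 143 (UQCRB) to 1579 (UQCRQ) in complex III. In complex IV it ran from 147 (COX8A) to 2594 (COX7B), and among the 16 subunits of complex V from 126 (ATP5A1W) to 2297 (ATP5E). The gene lengths behind these FPKM values, worked out from count and FPKM, were 61.2 bases for ATP5E and up to 2068 bases for SDHA. For 10 of the 39 genes they were at most 200 bases, shorter than the inserts described in the labels, so levels of the shortest genes depend on how the authors set that length.

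**Figure D1:**
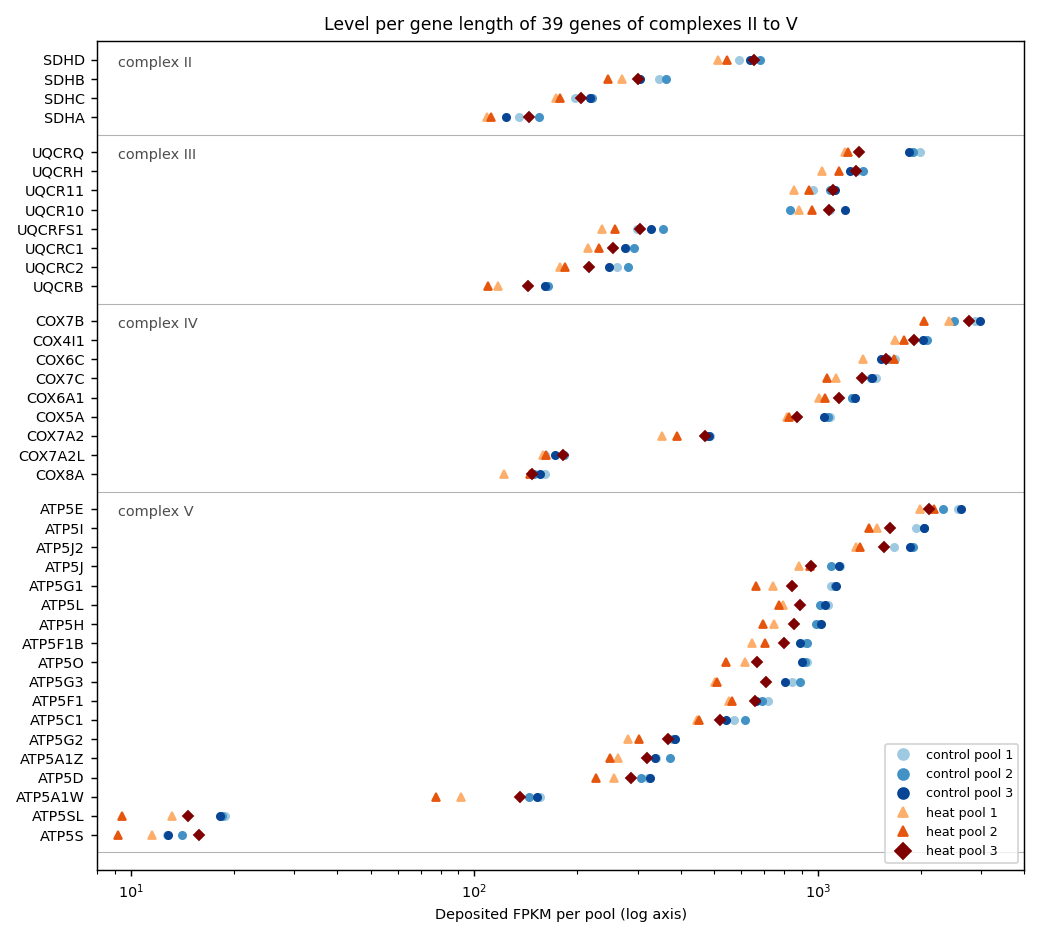
Deposited FPKM of each of the 39 genes in each pool, on a log axis, ordered by mean level within a complex; circles are control pools, triangles heat pools 1 and 2, and diamonds heat pool 3. Most genes had both triangles to the left of all circles, while the diamonds lay to the right of most triangles. The diamond was left of all circles for 28 of the 39 genes, beside 47.98% of all tested genes. On this scale the median of all tested genes was also lower in heat pool 3 (-0.13 on the log2 scale).

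After 6 h at 36 °C, transcripts of complexes II to V were lower than in control pools in heat pools 1 and 2. In heat pool 3 their summed level was not lower once libraries were scaled to the bulk of genes. In that pool 14 of the 18 genes of complex V were still below their control mean, beside 54.1% of all tested genes. Summed over the 39 genes, the level was 11721, 11520 and 11406 CPM in control pools 1, 2 and 3, against 8620, 9169 and 11487 CPM in heat pools 1, 2 and 3. Heat pools 1 and 2 were below every control pool, and heat pool 3 lay between the control pools. CPM here uses library sizes scaled by TMM, a method that sets the bulk of genes equal between pools.

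In heat pools 1 and 2 the lower level was shared by nearly every gene. In heat pool 1, 39 of 39 genes were below their own control mean, and in heat pool 2, 38 were, with COX6C as the exception. In heat pool 3 only 20 were, of which 14 belonged to complex V. Beside this, 50.25%, 50.93% and 54.07% of all tested genes were below their control mean in heat pools 1, 2 and 3. The median deviation from the control mean was -0.40 and -0.32 on the log2 CPM scale in heat pools 1 and 2 and -0.01 in heat pool 3. Over all tested genes it was between -0.022 and 0.01 in the heat pools, since the scaling centres it there.

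The picture for heat pool 3 depended on the scaling. In the deposited FPKM, 33 of 39 genes of heat pool 3 were below their control mean and 28 were below every control pool, beside 68.3% and 47.98% of all tested genes. The median deviation of the 39 genes in that pool was -0.14 on the log2(FPKM + 1) scale, beside -0.13 over all tested genes. In heat pools 1 and 2 it was -0.37 and -0.37, beside 0.0098 and -0.057. By the median deviation, then, heat pool 3 was close to all genes on both scales, and heat pools 1 and 2 were well below them. By the number of genes below the controls, heat pool 3 exceeded the share of all genes in FPKM. Its summed FPKM over the 39 genes was 30770, below the lowest control sum (34170) and above heat pools 1 (26430) and 2 (26920). Without TMM scaling, the 39 genes made up 1.074% of its counts, also below the lowest control share (1.16%).

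**Figure D2:**
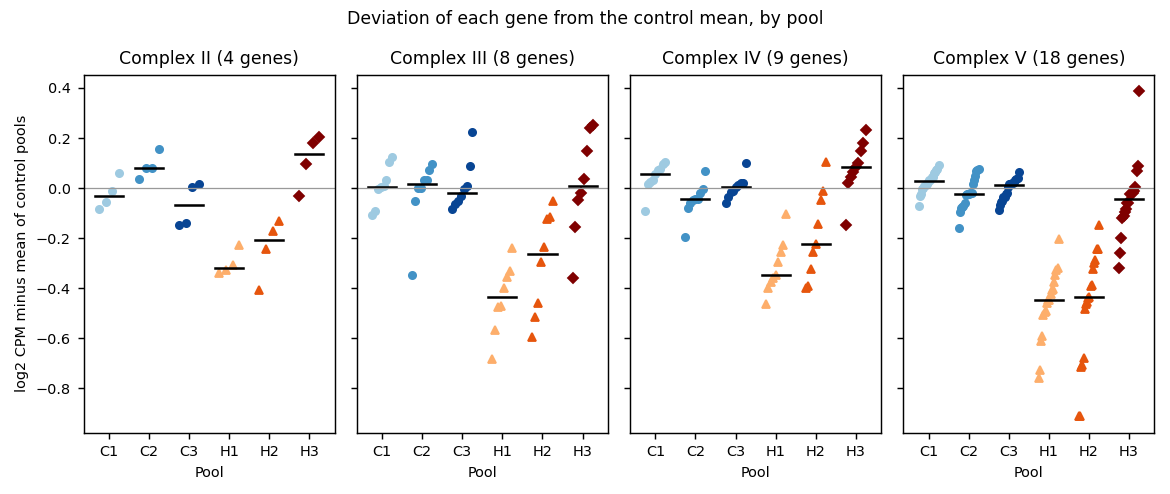
Deviation of each gene from its mean over the control pools, in log2 CPM, for complexes II to V; each point is 1 gene in 1 pool (C control, H heat) and the bar is the median of the complex. Nearly all points of heat pools 1 and 2 lie below 0, and the medians of heat pool 3 lie between -0.042 (complex V) and 0.14 (complex II).

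In the test over all 6 pools, edgeR's quasi-likelihood test called 0 of the 39 genes at an adjusted p of 0.05, and it called 0% of all tested genes lower; the smallest adjusted p among the 39 was 0.119. At an unadjusted p of 0.05, 9 of 39 were lower and 0 were higher, beside 9.02% of all tested genes lower and 8.87% higher. The fitted change was below 0 for 37 of 39 genes, beside 50.3% of all tested genes, and its median was -0.22 on the log2 scale, beside -0.0027 over all tested genes. All 3 heat pools were below all 3 control pools for 12 of the 39 genes in CPM, beside 12.9% of all tested genes. By the deposited FPKM, which are not scaled by TMM, it was 28 of 39, beside 17.8%.

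Other tests called few of them. DESeq2 placed 3 genes past an adjusted p of 0.05 in the lower direction, UQCRQ, ATP5O and ATP5G1, beside 2.24% of all tested genes. Without control pool 1, 2 or 3, or without heat pool 1 or 2, it called 0 of the 39. Beside this stood 1.98% of all genes when heat pool 1 was left out and 1.15% when heat pool 2 was. For the fits without a control pool, the share of all genes was not worked out. With limma-trend on log2(FPKM + 1), 0 of 39 passed, beside 0.315% of the 11759 genes tested on that scale.

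Heat pool 3 was left out because of its levels in these very genes, so the counts without it describe heat pools 1 and 2 and give no independent support. Without it, all 39 fitted changes were below 0, beside 49.7% of tested genes, and the median was -0.36. Both remaining heat pools were below all control pools for 34 of 39 genes, beside 21.6%. At an unadjusted p of 0.05, edgeR placed 26 of 39 lower, beside 11.8%. It placed 0 past an adjusted p of 0.05, beside 0.00754% (1 gene), with 0.0622 for ATP5A1W as the smallest adjusted p. DESeq2 on the same 5 pools called 22 of 39 lower, beside 5.12%. Without heat pool 1 instead, 30 of 39 fitted changes were below 0 and the median was -0.12, and without heat pool 2, 36 were and the median was -0.17. Over all genes it was heat pool 2 that lay farthest from the other libraries, with a chi-square of 70.5 to 84.6 per degree of freedom against the controls, where heat pool 3 had 37.4 to 39.8.

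The size of the change followed the complex only loosely. The median fitted log2 change was -0.10 in complex II, -0.22 in complex III, -0.13 in complex IV and -0.28 in complex V. Without heat pool 3 these were -0.27, -0.35, -0.28 and -0.42. At an unadjusted p of 0.05 in edgeR, 9.02% of all tested genes were lower. Of the 39 genes, 0 of 4 were lower in complex II, 2 of 8 in complex III and 1 of 9 in complex IV. In complex V it was 6 of 18, with ATP5SL, which is not a subunit, among them. The differences between complexes were not tested.

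**Figure D3:**
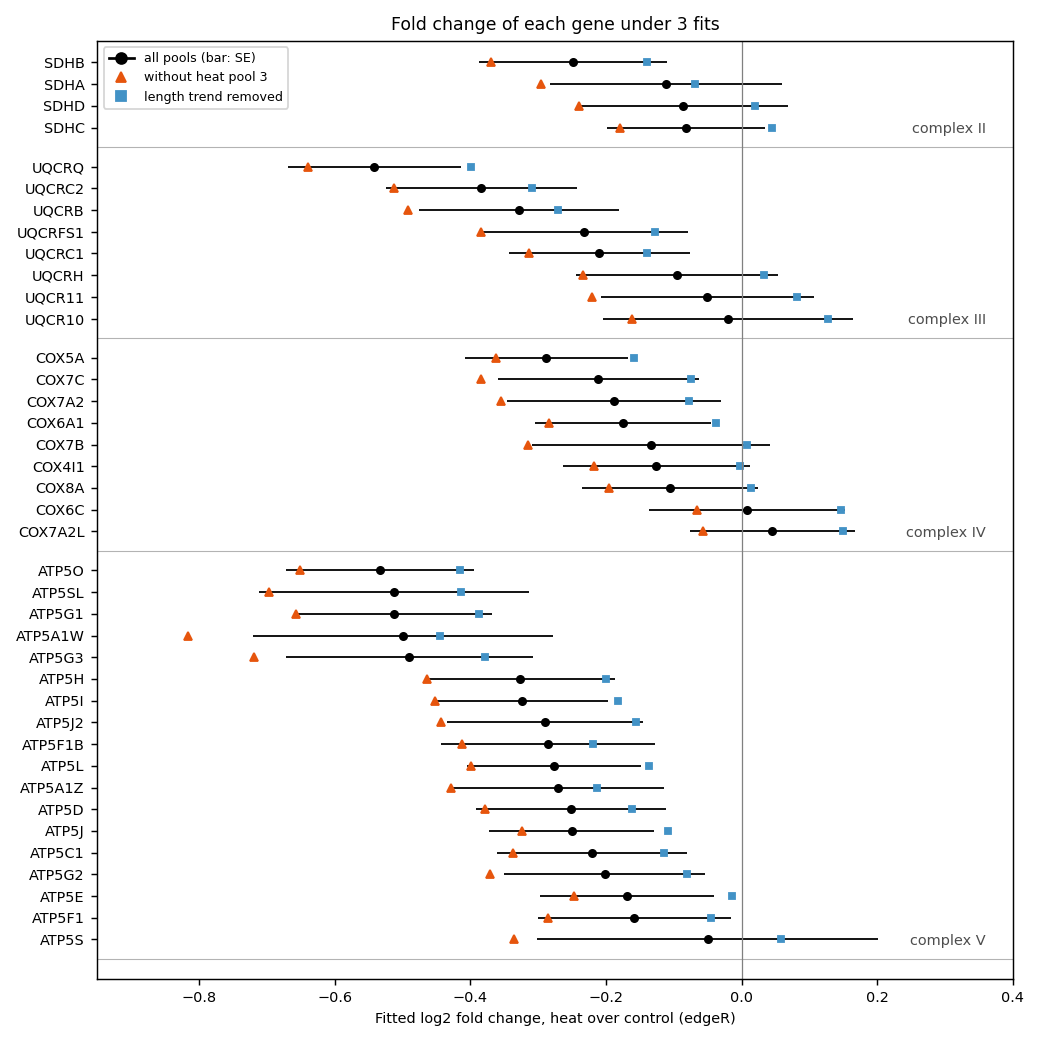
Fitted log2 fold change, heat over control, of each gene in edgeR over all pools (black circles, bars are 1 SE), without heat pool 3 (orange triangles) and with a trend on gene length removed (blue squares). Leaving out heat pool 3 moved every gene to the left and removing the length trend moved every gene to the right. UQCRQ, ATP5O, ATP5G1, ATP5A1W and ATP5SL stayed below -0.38 in all 3 fits.

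These are short genes, and short genes as a whole sat slightly lower in heat pools 1 and 2. For genes of up to 200 bases the median deviation from the control mean was -0.16, -0.19 and -0.014 in heat pools 1, 2 and 3. In control pools 1, 2 and 3 it was 0.084, -0.14 and 0.042. Across all tested genes, Spearman correlations of gene length with the deviation from the mean of all pools were 0.27, 0.24 and -0.15 in heat pools. In control pools they were -0.27, -0.052 and -0.13. The median length was 463 bases over the 39 genes and 2555 bases over all tested genes. Median fitted log2 change over all tested genes was -0.087 for lengths up to 200 bases, -0.13 from 200 to 500, -0.11 from 500 to 1000, -0.056 from 1000 to 2200 and 0.042 above that. In the same bins the 39 genes had medians of -0.23 (10 genes), -0.19 (10), -0.19 (11) and -0.28 (8), each below that of all genes of like length. With the trend on length removed, 29 of 39 fitted changes were below 0, beside 49.2% of tested genes, and the median was -0.11. Without heat pool 3 as well, that median was -0.19.

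By complex, the medians with the trend removed were -0.024, -0.13, -0.0017 and -0.17 for II, III, IV and V. The length that count and FPKM imply also differed between pools for genes of up to 200 bases, by a factor of 0.98 (control pool 2) to 1.033 (heat pool 3). With offsets for it the median was -0.23. The part of gene length in the lower levels was not tested.

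**Figure D4:**
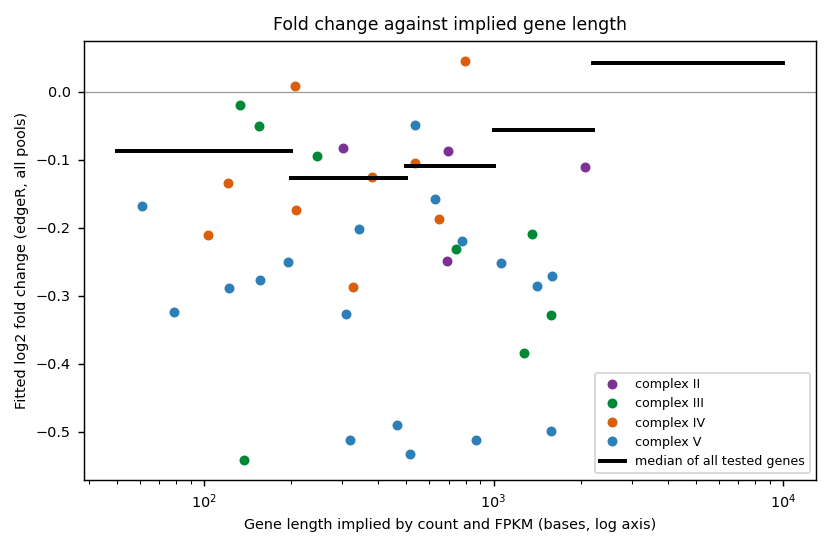
Fitted log2 fold change over all pools against the gene length implied by count and FPKM (log axis, bases); points are the 39 genes coloured by complex and black bars are medians of all tested genes in 5 length bins. Most points lie below the bar of their own bin. All points over 1000 bases do so, while some shorter genes, such as UQCRH, COX6C and SDHC, lie above it.

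In complex II, 0 of 4 genes were lower at an unadjusted p of 0.05, beside 9.02% of all tested genes. SDHB, the iron-sulphur subunit that carries electrons out of the catalytic part, was at 237, 240 and 207 CPM in control pools and 181, 172 and 223 CPM in heat pools 1, 2 and 3. Heat pools 1 and 2 were below every control pool and heat pool 3 was between them. Its fitted log2 change was -0.25 (SE 0.14, edgeR adjusted p 0.384). SDHA, the flavoprotein that oxidises succinate, was at 276, 310 and 251 CPM in control pools and 220, 235 and 321 CPM in heat pools. The highest SDHA level of all was therefore that of heat pool 3.

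The membrane anchors SDHC and SDHD, which help to form the coenzyme Q site, had like patterns over the pools. SDHC was at 59.3, 63.3 and 62.3 CPM in control pools and 52.6, 56.2 and 65.9 CPM in heat pools. SDHD was at 407, 456 and 434 CPM in control pools and 349, 384 and 489 CPM in heat pools. For both, heat pools 1 and 2 were the lowest pools and heat pool 3 the highest, so the groups overlapped. Their fitted log2 changes were -0.08 and -0.09, and both turned positive with the trend on length removed (0.04 and 0.02).

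In complex III, UQCRQ had the lowest fitted change of all 39 genes over the 6 pools. UQCRQ, a small subunit next to cytochrome b, was at 277, 249 and 249 CPM in control pools and 161, 171 and 201 CPM in heat pools. All heat pools were below all control pools, heat pool 3 included. Its fitted log2 change was -0.54 (SE 0.13), which is 31.3% lower, with an adjusted p of 0.119 in edgeR and 0.011 in DESeq2. Without heat pool 3 the fitted log2 change was -0.64, and with the trend on length removed it was -0.40.

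The core subunits UQCRC1 and UQCRC2 face the matrix and carry no redox centre. UQCRC2 was at 331, 347 and 311 CPM in control pools and 222, 240 and 296 CPM in heat pools, without overlap. This gave a fitted log2 change of -0.38 (SE 0.14, edgeR adjusted p 0.215). UQCRC1 was at 374, 383 and 366 CPM in control pools and 284, 318 and 369 CPM in heat pools, where heat pool 3 reached the control range. UQCRFS1, the Rieske iron-sulphur protein that moves between coenzyme Q and cytochrome c1, had a fitted log2 change of -0.23 (SE 0.15, edgeR adjusted p 0.459).

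Among the other small subunits, UQCRB, which borders the coenzyme Q pocket, had tight controls. It was at 250, 250 and 249 CPM in control pools and 180, 175 and 242 CPM in heat pools, without overlap. UQCRH, the hinge protein that helps cytochrome c to dock, was at 320, 319 and 299 CPM in control pools and 244, 287 and 346 CPM in heat pools, with heat pool 3 above every control pool. UQCR10 and UQCR11, peripheral small subunits, had fitted log2 changes of -0.02 and -0.05 with overlapping pools, and control pool 2 was the lowest pool of all for UQCR10 (105 CPM). With the trend on length removed, UQCRH, UQCR10 and UQCR11 were above 0, at 0.03, 0.13 and 0.08.

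In complex IV, COX5A was the only gene whose heat pools all lay below the control pools in CPM, beside 12.9% of all tested genes. In FPKM 6 of the 9 genes did so, beside 17.8%. On that scale heat pool 3 was below every control pool for 47.98% of all tested genes. COX5A, a matrix-side subunit, was at 356, 337 and 334 CPM in control pools and 259, 273 and 309 CPM in heat pools. The fitted log2 change of COX5A was -0.29 (SE 0.12, edgeR adjusted p 0.265). COX4I1, its neighbour in the early assembly of the complex, was at 776, 764 and 759 CPM in control pools and 623, 693 and 790 CPM in heat pools. Heat pools 1 and 2 were again the lowest and heat pool 3 the highest, with a fitted log2 change of -0.13 (SE 0.14).

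Several small membrane-spanning subunits of complex IV showed the same split between pools. COX7C was at 155, 142 and 146 CPM in control pools and 114, 112 and 156 CPM in heat pools. COX7A2, the form of its subunit found in most tissues outside muscle in mammals, was at 313, 296 and 308 CPM in control pools and 222, 256 and 327 CPM in heat pools. COX6A1, the likewise widespread form of subunit 6A, was at 263, 251 and 263 CPM in control pools and 203, 222 and 263 CPM in heat pools. For all 3 genes heat pools 1 and 2 were below every control pool, and heat pool 3 was within or above the control range. COX7B was at 353, 289 and 354 CPM in control pools and 283, 251 and 374 CPM in heat pools, and for COX8A heat pool 2 lay within the control range (fitted log2 change -0.11, SE 0.13). The fitted changes of COX7B and COX8A were slightly above 0 with the trend on length removed (0.0075 and 0.01). COX4I2, COX6A2, COX7A1 and COX8C, tissue forms of these subunits, were not among the symbols that the rule found, so they were not analysed here.

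The exceptions to the lower levels were also in complex IV. COX6C, a small membrane-spanning subunit, was at 349, 315 and 311 CPM in control pools and 272, 349 and 360 CPM in heat pools. Only heat pool 1 was below the controls. Its fitted log2 change was 0.01 (SE 0.14), and it was below 0 by upper quartile scaling (-0.01) and on FPKM (-0.07). COX7A2L, which joins complexes III and IV in supercomplexes, was at 125, 139 and 134 CPM in control pools and 123, 132 and 156 CPM in heat pools. Heat pool 2 lay within the control range, and the fitted log2 change was 0.05 (SE 0.12), or -0.04 on FPKM.

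Complex V, with 18 of the 39 genes, held 6 of the 9 that were lower at an unadjusted p of 0.05, beside 9.02% of all tested genes. All 18 fitted changes were below 0, beside 50.3% of all tested genes. In CPM, 8 of the 18 genes had all heat pools below all control pools, beside 12.9% of all tested genes. They were ATP5F1B, ATP5G1, ATP5G3, ATP5O, ATP5H, ATP5J, ATP5I and ATP5SL. ATP5SL, which is not a subunit, was also among the 6 lower genes. Of the 16 subunits alone, 5 were lower at that p and 7 had no overlap in CPM. With DESeq2 size factors, ATP5F1B, ATP5H and ATP5J overlapped. The summed level of the 16 subunits was 5874, 5751 and 5697 CPM in control pools and 4134, 4281 and 5500 CPM in heat pools, so here heat pool 3 was also below the controls, by less than heat pools 1 and 2. With the trend on length removed, all 16 subunits still had a fitted change below 0, beside 49.2% of all tested genes.

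The catalytic head consists of alpha and beta subunits. ATP5F1B, the beta subunit that makes ATP, was at 1282, 1275 and 1229.5 CPM in control pools and 888, 1009 and 1210 CPM in heat pools. The groups did not overlap, though heat pool 3 was close to the controls, and the fitted log2 change was -0.29 (SE 0.16, edgeR adjusted p 0.38). In birds the alpha subunit is encoded on both sex chromosomes, as ATP5A1Z on the Z and ATP5A1W on the W, and hens carry 1 of each. ATP5A1Z was at 536, 574 and 525 CPM in control pools and 407, 403 and 546 CPM in heat pools. ATP5A1W was at 245, 223 and 237 CPM in control pools and 142, 125 and 232 CPM in heat pools. For both copies heat pools 1 and 2 were clearly lowest and heat pool 3 reached the control range.

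ATP5A1W had the largest difference of all 39 genes once heat pool 3 was left out. Its fitted log2 change was then -0.82 (edgeR adjusted p 0.0622), against -0.50 (SE 0.22, edgeR adjusted p 0.288) over all pools. As a share of the counts of both alpha genes, it held 31.4%, 28.0% and 31.1% in control pools and 25.9%, 23.7% and 29.8% in heat pools. The share of heat pool 3 lay within the control range, and the means of 30.2% ± 1.91 and 26.5% ± 3.10 (SD, n = 3) gave an exact permutation p of 0.2 (two-sided). The sources used here do not say how the counting split reads between these near-identical copies, so the shares are uncertain.

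The central shaft, which turns inside the head, is built of gamma, delta and epsilon subunits. ATP5C1, the gamma subunit, was at 443, 461 and 413 CPM in control pools and 338, 357 and 435 CPM in heat pools. ATP5D, the delta subunit, was at 340, 316 and 341 CPM in control pools and 266, 245 and 327 CPM in heat pools. ATP5E was at 161, 135 and 157 CPM in control pools and 118, 136 and 149 CPM in heat pools. Only for ATP5C1 and ATP5D were heat pools 1 and 2 both below every control pool. For all 3 genes heat pool 3 lay within the control range.

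The c subunit forms the rotating membrane ring, and 3 genes encode the same mature protein with different import sequences in mammals. ATP5G1 was at 351, 347 and 356 CPM in control pools and 230, 215 and 293 CPM in heat pools. ATP5G3 was at 388, 396 and 366 CPM in control pools and 227, 239 and 353 CPM in heat pools. Neither gene's groups overlapped, and the fitted log2 changes were -0.51 (SE 0.14, edgeR adjusted p 0.144) for ATP5G1 and -0.49 (SE 0.18, edgeR adjusted p 0.22) for ATP5G3. ATP5G2, the least abundant of them, was at 129, 127 and 130 CPM in control pools and 93.5, 105 and 137 CPM in heat pools, where heat pool 3 was the highest pool. The fitted log2 change of ATP5G2 was -0.20 (SE 0.15, edgeR adjusted p 0.507).

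The make-up of the c subunit transcripts was also compared, in a design of 3 against 3 pools that cannot reach a p of 0.05. ATP5G2 held 14.9%, 14.5% and 15.2% of the counts of the 3 c genes in control pools and 17.0%, 18.8% and 17.4% in heat pools. All heat pools were above all control pools, with means of 14.9% ± 0.345 and 17.7% ± 0.946 (SD, n = 3). The exact permutation p was 0.1 (two-sided), the smallest that 3 against 3 pools allow, and 0.4 after adjustment over the 4 shares computed. For ATP5G1 and ATP5G3 the shares of the groups overlapped, with exact permutation p of 0.5 and 0.4. These shares were computed after the levels had been seen.

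**Figure D5:**
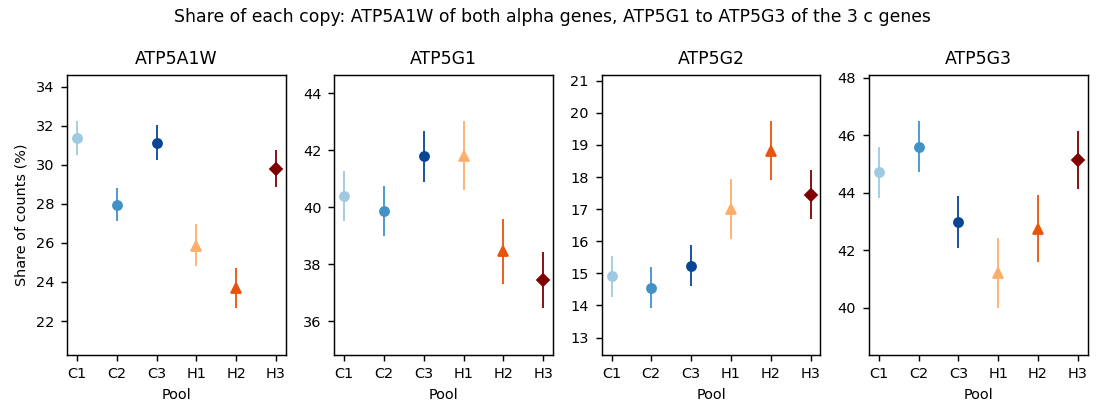
Share of counts, in percent, of ATP5A1W among both alpha subunit genes and of ATP5G1, ATP5G2 and ATP5G3 among the 3 c subunit genes, in each control (C) and heat (H) pool; bars are exact (Clopper-Pearson) 95% binomial intervals that cover counting error only, and the axes do not start at 0. The ATP5G2 share was 14.5% to 15.2% in control pools and 17.0% to 18.8% in heat pools, while the other shares overlap between the groups.

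The peripheral stalk keeps the head from turning with the ring. ATP5O, which ties the stalk to the top of the head, was at 479, 457 and 456 CPM in control pools and 308, 283 and 371 CPM in heat pools. All heat pools were well below all control pools. Its fitted log2 change was -0.53 (SE 0.14), which is 30.9% lower, with an adjusted p of 0.132 in edgeR and 0.0155 in DESeq2. ATP5H and ATP5J, the d and F6 subunits, also had no overlap, with fitted log2 changes of -0.33 and -0.25. ATP5F1, the b subunit that spans the membrane, was at 449, 418 and 410 CPM in control pools and 339, 360 and 446 CPM in heat pools, where heat pool 3 lay within the control range.

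The membrane subunits ATP5I, ATP5J2 and ATP5L sit beside the ring, where in mammals and yeast the e and g subunits help pair the complexes into dimers. ATP5I, the e subunit, was at 156, 153 and 158 CPM in control pools and 114, 113 and 145 CPM in heat pools, without overlap. ATP5J2, the f subunit, was at 206, 221 and 222 CPM in control pools and 154, 165 and 213 CPM in heat pools, with heat pool 3 within the control range. ATP5L, the g subunit, was at 169, 152 and 161 CPM in control pools and 121, 123 and 154 CPM in heat pools, again with heat pool 3 within the control range. Fitted log2 changes of the 3 genes were -0.32, -0.29 and -0.28.

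Of the genes that carry the ATP5 prefix without being subunits, ATP5SL was at 16.4, 15.6 and 15.7 CPM in control pools and 11.2, 8.4 and 13.8 CPM in heat pools, without overlap. ATP5S was at 6.8, 7.3 and 6.8 CPM in control pools and 6.0, 5.0 and 9.2 CPM in heat pools. Heat pool 3 had the highest ATP5S level of the 6 pools.

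Most lists of genes that work beside these complexes had negative medians, the regulators excepted, and edgeR called 0 genes at an adjusted p of 0.05 in the lists that follow. Complex I, which feeds electrons to coenzyme Q, had 32 of 34 fitted changes below 0 (beside 50.3% of all tested genes) and a median of -0.26, or -0.15 with the trend on length removed. For the citric acid cycle it was 16 of 19 (median -0.21), and for electron carriers and further core parts outside the symbol rule 10 of 11 (median -0.25). Carriers and channels that move ATP, phosphate and substrates across the mitochondrial membranes had 11 of 15 below 0 (median -0.17). The transcription factors and mitochondrial DNA factors that control the respiratory chain had 8 of 20 below 0 (median 0.06). At an unadjusted p of 0.05 the lists held, in that order, 8, 3, 4, 3 and 3 genes lower, and 0, 1, 0, 0 and 0 higher, beside 9.02% and 8.87% of all tested genes. In heat pool 3 the median deviation was -0.032 for complex I and -0.047 for the citric acid cycle, on the log2 CPM scale.

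The smallest p values in these lists belonged to NDUFA8, a complex I subunit (fitted log2 change -0.49), IDH3A, a catalytic subunit of isocitrate dehydrogenase (-0.49), USMG5, a small ATP synthase subunit (-0.38), VDAC3, an outer membrane channel (-0.56), and GABPB2, a partner of the transcription factor GABPA (-0.38). Their adjusted p in edgeR was 0.126, 0.152, 0.2, 0.145 and 0.218. CYC1, COX5B, COX6B1 and the genes of the mitochondrial genome were not analysed here. COX5B and COX6B1 were not among the symbols that the rule found.

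Some epithelial markers had the same split between pools as the respiratory genes, in a share close to that of all tested genes. VIL1 was at 1267, 1200.3 and 1250 CPM in control pools and 813, 617 and 1106 CPM in heat pools, with a fitted log2 change of -0.55 (SE 0.21, edgeR adjusted p 0.235). Heat pools 1 and 2 were below every control pool for VIL1, the peptide transporter SLC15A1, the cadherin CDH17 and the keratin KRT20 among 19 tested enterocyte markers, and for AGR2 and SPDEF, which serve secretory cells, among 10 goblet and hormone cell markers. This compares with 34 of 39 respiratory genes and 21.6% of all tested genes. It held for 0 of 16 fibroblast, 0 of 12 smooth muscle and 0 of 7 endothelial markers, and for 1 of 12 immune and 1 of 4 red blood cell markers. The enterocyte markers with the smallest p were MTTP and APOB, and both were higher in heat. Their fitted log2 changes were 1.01 (SE 0.23, edgeR adjusted p 0.107) and 0.54 (SE 0.15, edgeR adjusted p 0.146).

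As whole lists the markers had other values. The 19 tested enterocyte markers had a median fitted log2 change of 0.01 with 9 of 19 below 0, beside 50.3% of all tested genes. Their summed level was 25230 to 34830 CPM in control pools and 28326, 21432 and 35637 CPM in heat pools 1, 2 and 3. Heat pool 2 was thus the lowest pool and heat pool 3 the highest, in a sum to which APOA1, a lipoprotein gene, added 4696 to 11650 CPM. The 12 smooth muscle markers had 1 fitted change below 0 and a median of 0.24, with summed levels of 1112 to 1818 CPM in control pools and 1072, 2072 and 2121 CPM in heat pools. Fibroblast markers summed to 2030 to 2823 CPM in control pools and 2345, 3565 and 1831 CPM in heat pools (median -0.03, 9 of 16 below 0).

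Immune markers had a median fitted log2 change of 0.0064 (6 of 12 below 0), goblet and hormone cell markers -0.18 (7 of 10 below 0), endothelial markers 0.13 (3 of 7 below 0) and the 4 tested red blood cell markers -0.14 (3 below 0). None of the marker lists had a gene past an adjusted p of 0.05 in edgeR. At an unadjusted p of 0.05, 1 enterocyte marker was lower and 2 were higher. At the same p, 1 immune marker was higher and 1 red blood cell marker lower, with 0 in the other lists. Over all tested genes, 9.02% were lower and 8.87% higher at that p in edgeR, and 50.3% had a fitted change below 0. The part of cell type make-up in the respiratory gene levels was not tested.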

How the data were processed

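RNA of jejunal mucosa was sequenced in 6 pools, 3 per condition, and the sample titles gave the groups. Per the submitters' processing notes, the build was GRCg6a and the software comprised DESeq2, HTSeq 0.6.1, HISAT2 2.0.1 and cutadapt 1.9.1. The deposited table gives an estimated count per gene and pool, per the file headers, and 13.05% to 13.65% of each pool's values were not whole within 0.001. The FPKM values were made and deposited by the authors, per the file headers. The strand setting and the tool behind the estimated counts are not given in the sources used here. No genome of that build was used here, so no sequence or coordinate is printed.

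Counts were rounded and tested with edgeR 4.0.16 in R 4.3.3: TMM scaling, filterByExpr (minimum count 10, minimum total 15), glmQLFit and glmQLFTest, two-sided, with Benjamini-Hochberg adjustment over all 13060 tested genes and a threshold of 0.05. The common biological coefficient of variation was 0.196. The SE is the log2 change over the square root of F. DESeq2 1.42.0 and limma 3.58.1 gave alternatives. Their basic forms, and edgeR with a replicate block or an adjustment for length, were run on simulated counts. Those counts had no length trend and no deviating pool. Fits with another scaling, filter or pseudocount, or with a pool left out, were not run on them. Deviations used log2 CPM with a prior count of 2. Gene length was taken from count, total and FPKM, and a trend on it was removed with a lowess curve (span 0.3). Offsets for the length implied in each pool, the alternatives to edgeR without heat pool 3, and DESeq2 with 1 pool left out, were chosen after seeing the data. Depth of 11513427 to 13805395 counts sets the counting error. Pools of one group were distinct libraries: between any pair, chi-square over genes was 22.2 to 65 times its degrees of freedom.

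The members and lists were chosen with earlier results of these data known. Members were named by a rule: in each complex the 3 with the smallest p, the 3 with the highest FPKM, positive changes and paralogues. The others were named after their values were seen, to account for every gene. From other lists the gene with the smallest p was named. Cell type markers were named after their values were seen.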

Additional observations from a re-analysis of the deposited data

How the results depend on the processing

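Calls of single genes depended on the test, and the power of 3 pools of hens per group to call small changes was not tested. In edgeR and limma the count of members past the threshold was 0 under every alternative run, the replicate block included, and 3 with DESeq2, or 0 when any control pool, heat pool 1 or heat pool 2 was left out. Deviations from the group mean correlated at 0.257, 0.0891 and 0.0169 between same-numbered control and heat pools. Between pools of different number the correlations were -0.239 to 0.185. With the block, 38 members were below 0 (median -0.23). The count below 0 was 29 to 39 over all alternatives and the median -0.36 to -0.11. Leaving out 1 pool at a time gave 12 to 34 members without overlap, the highest without heat pool 3. FPKM gave 28 and DESeq2 size factors 9. Over all tested genes the share without overlap was 12.9% with all pools in CPM, 21.6% without heat pool 3 and 17.8% in FPKM. For DESeq2 size factors and the other pools left out, that share was not worked out. Without heat pool 3, DESeq2 called 22 and the other 4 alternatives run called 0. The complex II median was 0.0004 without heat pool 1.

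COX6C turned negative with upper quartile scaling (-0.0115), limma-trend on FPKM at either pseudocount or without a filter (-0.0655), voom weights (-0.0766), the replicate block (-0.0007) and implied length offsets (-0.0016). COX7A2L turned negative with limma-trend on FPKM (-0.0386, or -0.0388 with a pseudocount of 0.1) and voom weights (-0.0097). With the length trend removed, some of the 27 members named by rule turned positive, with values here without and with the block. They were COX7B (0.0075 and 0.0000), COX8A (0.0138 and 0.0080), SDHC (0.0447 and 0.0461), SDHD (0.0195 and 0.0155), UQCR11 (0.0815 and 0.0784) and UQCRH (0.0330 and 0.0300). UQCR10 (0.128) and ATP5S (0.0577), outside that rule, also turned positive with the trend removed and no block. The cause was not tested. Leaving out 1 pool at a time gave -0.0655 to 0.1355 for COX6C, -0.0566 to 0.1262 for COX7A2L, -0.1961 to 0.0174 for COX8A, -0.2964 to 0.0041 for SDHA, -0.2394 to 0.024 for SDHD, -0.221 to 0.0831 for UQCR11 and -0.2333 to 0.0299 for UQCRH. Of 513 values of the 27 members named by rule under an alternative, 476 kept direction and side of the threshold. The planned promoter motif search was not run.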

Other observations

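Genes that build the complexes rather than form part of them were mixed in direction, and 0 passed an adjusted p of 0.05 in edgeR in any of these lists. Among 4 assembly factors of complex II, 2 had a fitted log2 change below 0 and the median was 0.18. SDHAF1, which helps to insert the iron-sulphur clusters of SDHB in human, was at 0.51 (SE 0.15, edgeR adjusted p 0.159), against -0.25 for SDHB itself. All 6 assembly factors of complex III were below 0 (median -0.20). The smallest p of these belonged to C26H6ORF125, listed in the RefSeq gene table with the synonym MNF1, at -0.72 (SE 0.20, edgeR adjusted p 0.14). Of 25 assembly factors of complex IV, 13 were below 0 (median -0.0035), with COX15, an enzyme of heme A synthesis, at -0.49 (SE 0.13, edgeR adjusted p 0.14).

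The list for complex V assembly had 4 of 6 genes below 0 (median -0.26). Its smallest p belonged to NUBPL, at -0.76 (SE 0.19, edgeR adjusted p 0.124), which in human serves complex I. Of 11 genes of coenzyme Q synthesis, 10 were below 0 (median -0.21), with COQ6, a ring hydroxylase, at -0.57 (SE 0.14, edgeR adjusted p 0.123). Mitochondrial ribosomal proteins, which translate the mitochondrially encoded subunits, had 62 of 74 below 0 (median -0.14, or -0.038 with the trend on length removed), with MRPL4 at -1.28 (SE 0.26, edgeR adjusted p 0.0926). The level of MRPL4 was low, at 6.45, 5.73 and 5.34 CPM in control pools and 2.46, 1.75 and 2.97 CPM in heat pools 1, 2 and 3. At an unadjusted p of 0.05, the assembly lists of complexes II, III, IV and V held 1, 2, 4 and 1 genes lower and 1, 0, 1 and 0 higher. Coenzyme Q synthesis held 5 lower and 1 higher, and the ribosomal proteins 12 lower and 4 higher. Over all tested genes the shares were 9.02% lower and 8.87% higher, and 50.3% had a fitted change below 0.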
